A study of Homo sapiens with 22 samples.

Results

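HOXA3, HOXA4, HOXA5, HOXA6, HOXA7, HOXA9 and HOXA10, 7 homeobox genes of the HOXA cluster, were followed with MEIS1, PBX3 and MEF2C through an RNA sequencing series on acute myeloid leukaemia cell lines. The genes were taken by symbol, and all 10 were among the 28063 gene symbols of each count table. The series held 22 libraries of polyadenylated RNA in 11 groups of 2. MOLM-13, MV-4-11 and THP-1 are established human lines that, as background, carry a fusion of the KMT2A gene, with MLLT3 in MOLM-13 and THP-1 and with AFF1 in MV-4-11. Each line had a group given 1 µM BRM014 for 24 h, a group given it for 72 h and a group given the solvent dimethyl sulfoxide (DMSO). BRM014 blocks SMARCA4 and SMARCA2, the ATPase motors of the SWI/SNF chromatin remodellers. THP-1 had a group given 3 µM DB2313, which inhibits the transcription factor PU.1, for 72 h, and a group given 10 nM of the phorbol ester PMA for 48 h and then kept 24 h without it. The labels mark all cells as WT, and no group carries a labelled genetic change beyond its line. They do not say which DMSO libraries were kept for 24 h or 72 h, so the same DMSO group stood against both BRM014 times, and time in culture may be part of each BRM014 value. Whether the DB2313 and THP-1 DMSO libraries were prepared together is not given, nor whether the 2 libraries of a group came from separate cultures. The p-values therefore measure the spread between libraries, which may be technical.

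HOX proteins are homeodomain transcription factors, and their genes lie in clusters in the order in which they are used along the body axis. In blood, the HOXA genes are active in stem and progenitor cells and are turned down as cells mature. KMT2A fusion proteins keep HOXA9 and MEIS1 on in leukaemia. HOXA9 binds DNA together with MEIS1 and PBX3, cofactors of the TALE class of homeodomain proteins. MEF2C, a MADS-box transcription factor, is known as a further gene that is high in leukaemias with KMT2A fusions.

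Libraries held 15893489 to 21565666 reads in genes, and values are given as CPM, a gene's reads scaled to a total of 1000000 gene reads. A count of 0 allows up to 3 counts at 95% confidence, which was 0.139 to 0.189 CPM in single libraries. Limits of this kind take in counting error alone, as amplified reads without identifiers can repeat a molecule. The share of reads outside annotated genes was 12.02% to 19.2%. In MOLM-13 it was 12.99% and 13.6% at 24 h and 18.2% and 18.4% at 72 h of BRM014, against 13.2% and 12.4% with DMSO. In THP-1 it lay between 18.4% and 19.2% in the 4 BRM014 libraries, at 17.9% and 18.7% in those of DB2313 and at 16.02% and 12.4% in those of PMA, against 16.5% and 15.8% with DMSO. Its part in the results was not tested. All 8 myeloid markers had reads in every library, at 1508 to 10342 CPM in sum. Their sum in MOLM-13 was 2202 and 2306 CPM at 24 h and 4162 and 4076 CPM at 72 h of BRM014, against 2207 and 2353 CPM with DMSO. In MV-4-11 it was 1510.1 and 1508 CPM at 24 h and 2007 and 2035 CPM at 72 h, against 1608 and 1599.6 CPM with DMSO. In THP-1 it was 1652 and 1620.2 CPM at 24 h and 1733 and 1813 CPM at 72 h, 2322 and 2237 CPM with DB2313 and 9989 and 10342 CPM with PMA, against 3459.8 and 3304 CPM with DMSO. The 8 myeloid markers did not move together. In MOLM-13 at 72 h of BRM014, MPO had 8.10 and 5.96 CPM, against 167 and 168 CPM with DMSO. LYZ had 413 and 403 CPM there, against 223 and 203 CPM with DMSO. In THP-1 LYZ had 60.9 and 60.7 CPM with DB2313 and 8300 and 8432 CPM with PMA, against 1934 and 1755 CPM with DMSO. CD33 in THP-1 had 138 and 126 CPM with DB2313, against 66.3 and 59.5 CPM with DMSO. The 5 erythroid markers reached 0.396 CPM in sum at most. The 7 lymphoid markers summed to 1.24 to 16.1 CPM. The 7 epithelial and fibroblast markers summed to 151 and 155 CPM in THP-1 at 72 h of BRM014 and 70.0 and 76.1 CPM with DB2313, against 2.13 and 2.62 CPM with DMSO, and to no more than 15.9 CPM in any other library. In THP-1 the fibroblast collagen gene COL1A1 had 114 and 122 CPM at 72 h of BRM014 and 24.3 and 29.7 CPM with DB2313, against 0.501 and 0.742 CPM with DMSO. The cadherin gene CDH1 had 35.6 and 30.3 CPM at 72 h of BRM014, against 0 with DMSO, and the keratin gene KRT8 had 44.5 and 45.7 CPM with DB2313, against 1.63 and 1.83 CPM with DMSO. In these groups COL1A2 was at 0, and EPCAM, KRT18 and DCN did not exceed 0.899 CPM. The part of these markers in the results was not tested.

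The 7 HOXA genes lie on the minus strand of chromosome 7 (GENCODE v29, GRCh38). HOXA3 spans 27106184 to 27152581, HOXA4 spans 27128507 to 27130799, HOXA5 spans 27141052 to 27143668 and HOXA6 spans 27145396 to 27150603. HOXA7 spans 27153716 to 27157936, HOXA9 spans 27162435 to 27175180 and HOXA10 spans 27170591 to 27180261. MEIS1 spans 66433452 to 66573869 on the plus strand of chromosome 2, PBX3 spans 125747345 to 125967377 on the plus strand of chromosome 9, and MEF2C spans 88717117 to 88904257 on the minus strand of chromosome 5. The strand setting of the counting is not given, and 37.5% of the exon bases of HOXA7 and 60.7% of those of HOXA6 lay in no exon of another listed gene, the rest being shared with antisense HOXA-AS3. HOXA7 and HOXA6 values are therefore uncertain. For HOXA3, HOXA4, HOXA9 and HOXA10 the share of exon bases in no other listed gene was 83.6% to 86.1%. HOXA9 and HOXA10 overlap on the same strand, but share 0 exon bases with each other in GENCODE v29. With antisense HOXA10-AS they share 422 and 608 exon bases. Their read-through row was at 0 in every library. The annotation used for the counting is not given, so the split of reads between them is also uncertain.

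Promoter sequences are shown for HOXA4 and HOXA9, which are among the genes that rose in THP-1 with both BRM014 and DB2313, for HOXA10, which moved in opposite directions in 2 lines, and for MEIS1, which fell in both lines that expressed it. They are RefSeq sequences on GRCh38.p14, which gave promoters for 9 of the 10 genes, and each is the stretch of up to 250 bases before a start, stopped at the first base in an exon of a coding gene. HOXA4 is chr7:27130800-27131007, HOXA9 is chr7:27165538-27165787 and HOXA10, at the second of its listed starts, is chr7:27174321-27174570, all on the minus strand, and MEIS1 is chr2:66434875-66435124 on the plus strand. All are written 5′ to 3′, with capitals at matches to GAGGAA (the core of a PU.1 site), TGACAG (MEIS), TGATNNAT (PBX with HOX), CACGTG (an E-box) or CCAAT on either strand.
HOXA4: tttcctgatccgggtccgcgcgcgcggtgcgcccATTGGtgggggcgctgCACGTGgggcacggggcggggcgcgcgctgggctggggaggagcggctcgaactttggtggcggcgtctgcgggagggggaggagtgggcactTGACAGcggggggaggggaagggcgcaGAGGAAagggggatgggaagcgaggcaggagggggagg
HOXA9: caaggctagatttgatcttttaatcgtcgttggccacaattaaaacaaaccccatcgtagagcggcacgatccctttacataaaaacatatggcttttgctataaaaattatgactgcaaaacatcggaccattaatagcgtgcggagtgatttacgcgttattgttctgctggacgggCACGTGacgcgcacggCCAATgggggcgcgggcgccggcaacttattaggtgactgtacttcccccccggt
HOXA10: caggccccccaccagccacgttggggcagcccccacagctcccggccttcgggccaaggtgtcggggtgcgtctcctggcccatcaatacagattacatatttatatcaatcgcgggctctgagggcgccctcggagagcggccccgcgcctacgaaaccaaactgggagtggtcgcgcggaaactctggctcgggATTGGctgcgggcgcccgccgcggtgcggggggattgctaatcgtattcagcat
MEIS1: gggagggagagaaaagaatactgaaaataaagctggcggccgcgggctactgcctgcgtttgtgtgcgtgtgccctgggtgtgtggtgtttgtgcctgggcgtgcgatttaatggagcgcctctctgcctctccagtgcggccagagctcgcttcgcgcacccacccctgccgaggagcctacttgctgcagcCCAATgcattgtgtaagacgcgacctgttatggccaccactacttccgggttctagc
The 4 stretches each held 1 CCAAT match, a motif found in 32.0% of 35116 RefSeq promoter stretches of 250 bases. HOXA4 and HOXA9 each held 1 CACGTG match (6.34% of all), and HOXA4 also held 1 match each to TGACAG (13%) and GAGGAA (23.6%). No TGATNNAT match was present (6.47% of all). No matches overlapped in these stretches. CACGTG and CCAAT were added to the search after the promoters had been read. The stretches held 22 CpG dinucleotides in HOXA4, 20 in HOXA9, 24 in HOXA10 and 16 in MEIS1, where the median of all promoters was 11. A match is a description of letters and not of binding.

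The 10 genes did not move as a block. At 72 h of BRM014, HOXA10 fell in MOLM-13 and MV-4-11 and rose in THP-1, MEIS1 fell in both lines that expressed it, and HOXA9 was called lower in no line. A gene was called at an adjusted p under 0.05 in edgeR's quasi-likelihood test with Benjamini-Hochberg adjustment over 16794 genes, all 10 of these included, and "rose" and "fell" are used of called changes only. Changes are log2 fold changes ± standard error. In MOLM-13, 0 rose and 5 fell at 24 h, and of all genes 22.7% rose and 23.5% fell. At 72 h, 0 rose and 6 fell there, against 30.3% and 29.4% of all genes. In MV-4-11, 4 rose and 1 fell at 24 h (23.6% and 22.4% of all genes), and 2 rose and 3 fell at 72 h (28.4% and 26.1%). In THP-1, 6 rose and 1 was called lower at 24 h (25.9% and 24.1%), and 7 rose and 1 was called lower at 72 h (30.9% and 28.0%). The gene called lower in THP-1 was MEIS1, on 0 reads with BRM014 and 5 with DMSO. The median change of the 7 HOXA genes was -0.55 in MOLM-13, 0.24 in MV-4-11 and 1.36 in THP-1 at 24 h, and -0.87, 0.25 and 0.93 in the same order at 72 h. The THP-1 medians take in HOXA6, which had 3 reads at 24 h, 0 at 72 h and 0 with DMSO. The median of all genes lay between 0 and 0.06 in these comparisons. In bulk RNA, fewer cells that express a gene and less of its RNA per cell cannot be told apart.

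**Figure D1:**
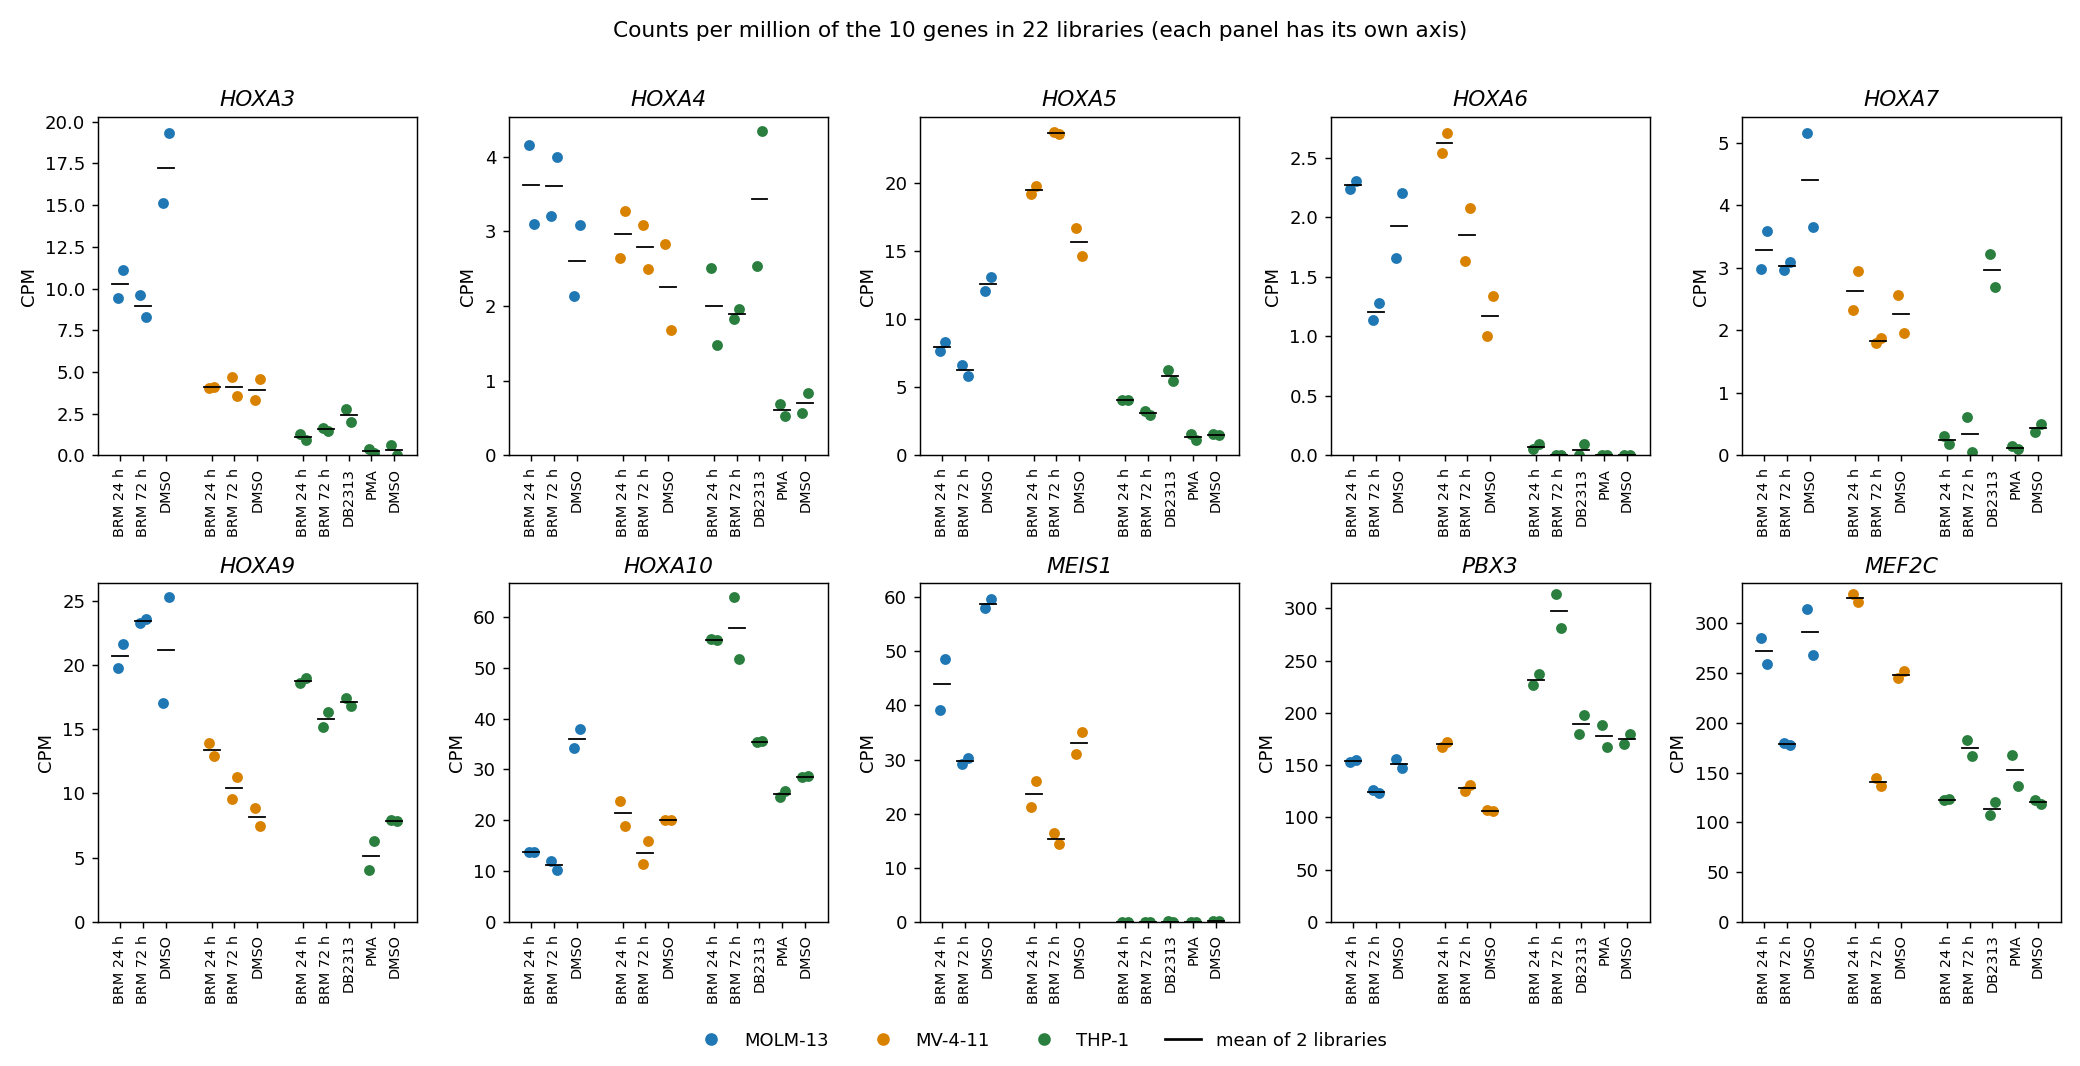
CPM of each of the 10 genes in each of the 22 libraries. Points are libraries, coloured by line, bars are means of 2 libraries, and each panel has its own linear axis from 0. MEIS1 and HOXA6 lie at or near 0 in all THP-1 libraries, and HOXA10 stands at 55.4 to 55.7 CPM in THP-1 at 24 h of BRM014 and at 13.7 CPM in both MOLM-13 libraries of that treatment.

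**Figure D2:**
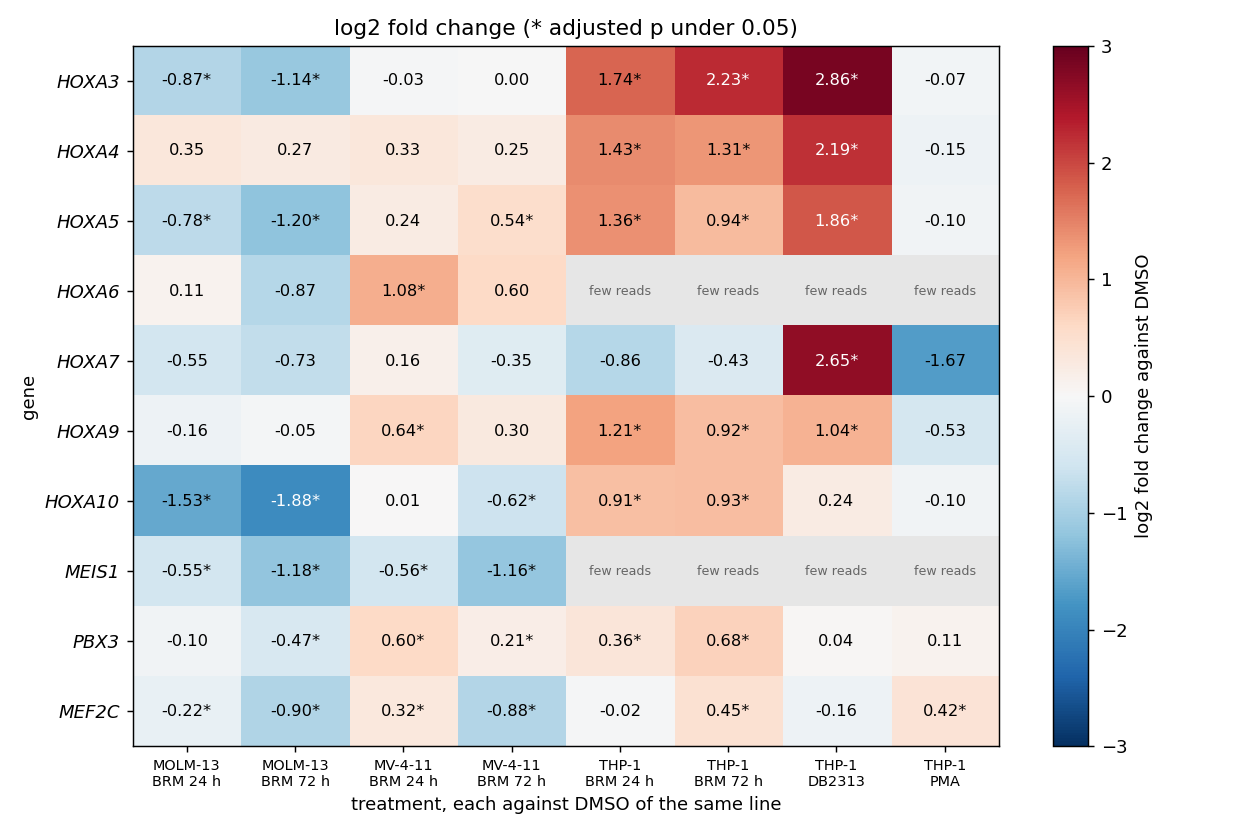
Log2 fold change of each gene against DMSO of the same line, by treatment. Stars mark adjusted p under 0.05, red is higher and blue lower than DMSO, and grey cells hold too few reads for a fold. HOXA10 and HOXA5 are blue in MOLM-13 and red in THP-1 at both BRM014 times, while MEIS1 is blue in MOLM-13 and MV-4-11.

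With DMSO alone, HOXA3, HOXA4, HOXA5, HOXA6 and HOXA7 were lower in THP-1 than in the other lines. In the DMSO libraries, HOXA5 had 1.57 and 1.49 CPM in THP-1, against 12.03 and 13.1 CPM in MOLM-13 and 16.7 and 14.6 CPM in MV-4-11. MEIS1 had 1 and 4 reads in the THP-1 DMSO libraries, against 979 and 947 reads in MOLM-13 and 557 and 732 reads in MV-4-11. HOXA6 had no read in THP-1 with DMSO and 63 reads in MOLM-13, so it was at least 23.2-fold lower in THP-1 by 3 counts over the group. The THP-1 DMSO group did not overlap with the DMSO groups of the other lines for these 3 genes. Against MOLM-13, 0 of the 10 genes were higher and 9 lower in THP-1 (34.2% and 30.5% of all genes), with PBX3 at 0.06 ± 0.07 uncalled. Against MV-4-11, 2 were higher and 7 lower in THP-1 (35.2% and 29.5%), the higher ones being PBX3 (0.70 ± 0.07) and HOXA10 (0.49 ± 0.14). MV-4-11 had 0 higher and 7 lower than MOLM-13 (24.3% and 27.9%), and HOXA3 was lower by the most (-2.26 ± 0.34). HOXA3 in THP-1 stood at -5.92 ± 0.46 against MOLM-13 and -3.66 ± 0.49 against MV-4-11, at -8.41 and -6.15 without THP-1 DMSO replicate 1, and at -4.92 and -2.66 without replicate 2, called in each case. HOXA10 no longer passed between THP-1 and MOLM-13 without MOLM-13 DMSO replicate 2 (-0.49 ± 0.14, adjusted p = 0.00420, and 0.0538 without it). HOXA7 no longer passed between MV-4-11 and MOLM-13 without MOLM-13 DMSO replicate 1 (adjusted p = 0.147) or MV-4-11 DMSO replicate 2 (0.132).

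Per kilobase of exon that no other listed gene shares, PBX3 and MEF2C stood above all 7 HOXA genes and MEIS1 in each DMSO group. PBX3 averaged 33.4 ± 1.37 CPM per kb in MOLM-13, 23.5 ± 0.172 in MV-4-11 and 38.6 ± 1.48 in THP-1 (SD, n = 2), and MEF2C averaged 26.2 ± 2.88, 22.3 ± 0.477 and 10.9 ± 0.261 CPM per kb in the same order. Among the HOXA genes, HOXA10 was highest per kb in MOLM-13 (11.6 ± 0.840) and THP-1 (9.22 ± 0.0593), and HOXA5 in MV-4-11 (9.16 ± 0.854). HOXA9 averaged 8.11 ± 2.25, 3.14 ± 0.385 and 3.03 ± 0.0372 CPM per kb in MOLM-13, MV-4-11 and THP-1.

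HOXA9, the HOX gene most closely tied to KMT2A leukaemia, rose in THP-1 at both times and in MV-4-11 at 24 h, and was not called in MOLM-13. In THP-1 it had 18.6 and 19.01 CPM at 24 h and 15.2 and 16.4 CPM at 72 h of BRM014, against 7.96 and 7.82 CPM with DMSO. Both treated groups lay wholly above DMSO, with changes of 1.21 ± 0.19 (adjusted p = 2.72e-05) and 0.92 ± 0.19 (adjusted p = 0.000434). In MV-4-11 it had 13.9 and 12.9 CPM at 24 h and 9.60 and 11.3 CPM at 72 h, against 8.89 and 7.47 CPM with DMSO. The groups did not overlap at either time, but only the 24 h change of 0.64 ± 0.19 passed the test (adjusted p = 0.00959), and it did not pass without BRM014 24 h replicate 1 (adjusted p = 0.0581) or DMSO replicate 2 (0.108). HOXA9 in MOLM-13 had 19.8 and 21.7 CPM at 24 h and 23.2 and 23.6 CPM at 72 h, against 17.01 and 25.3 CPM with DMSO. The 2 DMSO libraries of MOLM-13 spanned the treated values at both times.

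HOXA10, the neighbour of HOXA9 and a factor of early myeloid progenitors, fell in MOLM-13 and rose in THP-1 at both times. In MOLM-13 it had 13.7 and 13.7 CPM at 24 h and 12.1 and 10.3 CPM at 72 h of BRM014, against 34.2 and 37.9 CPM with DMSO. Every treated library lay below every DMSO library, with changes of -1.53 ± 0.15 (adjusted p = 3.52e-08) and -1.88 ± 0.15 (adjusted p = 6.56e-10). In THP-1 it had 55.7 and 55.4 CPM at 24 h and 64.0 and 51.8 CPM at 72 h, against 28.4 and 28.7 CPM with DMSO. Here every treated library lay above every DMSO library, with changes of 0.91 ± 0.14 (adjusted p = 1.11e-05) and 0.93 ± 0.14 (adjusted p = 5.92e-06). In MV-4-11 it had 23.7 and 18.9 CPM at 24 h and 11.3 and 15.8 CPM at 72 h, against 20.1 and 20.1 CPM with DMSO. The 24 h libraries stood on either side of DMSO, and the 72 h libraries below it, with a change of -0.62 ± 0.15 (adjusted p = 0.00126). HOXA10 calls against DMSO in the single lines held without any 1 library.

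Reads of HOXA9 per read of HOXA10 were higher in treated MOLM-13 libraries than with DMSO. The ratio was 1.45 and 1.59 at 24 h and 1.93 and 2.30 at 72 h of BRM014, against 0.497 and 0.668 with DMSO. In MV-4-11 it was 0.585 and 0.682 at 24 h and 0.846 and 0.712 at 72 h, against 0.442 and 0.371 with DMSO, so the treated libraries of both lines lay above DMSO. In THP-1 it was 0.333 and 0.343 at 24 h and 0.238 and 0.316 at 72 h, against 0.280 and 0.272 with DMSO, and at 72 h the groups overlapped. No test was run on the ratio, which compares reads and not transcripts, and which rests on how reads of the overlapping genes were assigned. The 7 HOXA genes together had 59.9 and 63.7 CPM at 24 h in MOLM-13, against 87.3 and 104.5 CPM with DMSO. In THP-1 they together had 82.4 and 81.2 CPM at 24 h, against 39.5 and 39.4 CPM with DMSO.

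**Figure D3:**
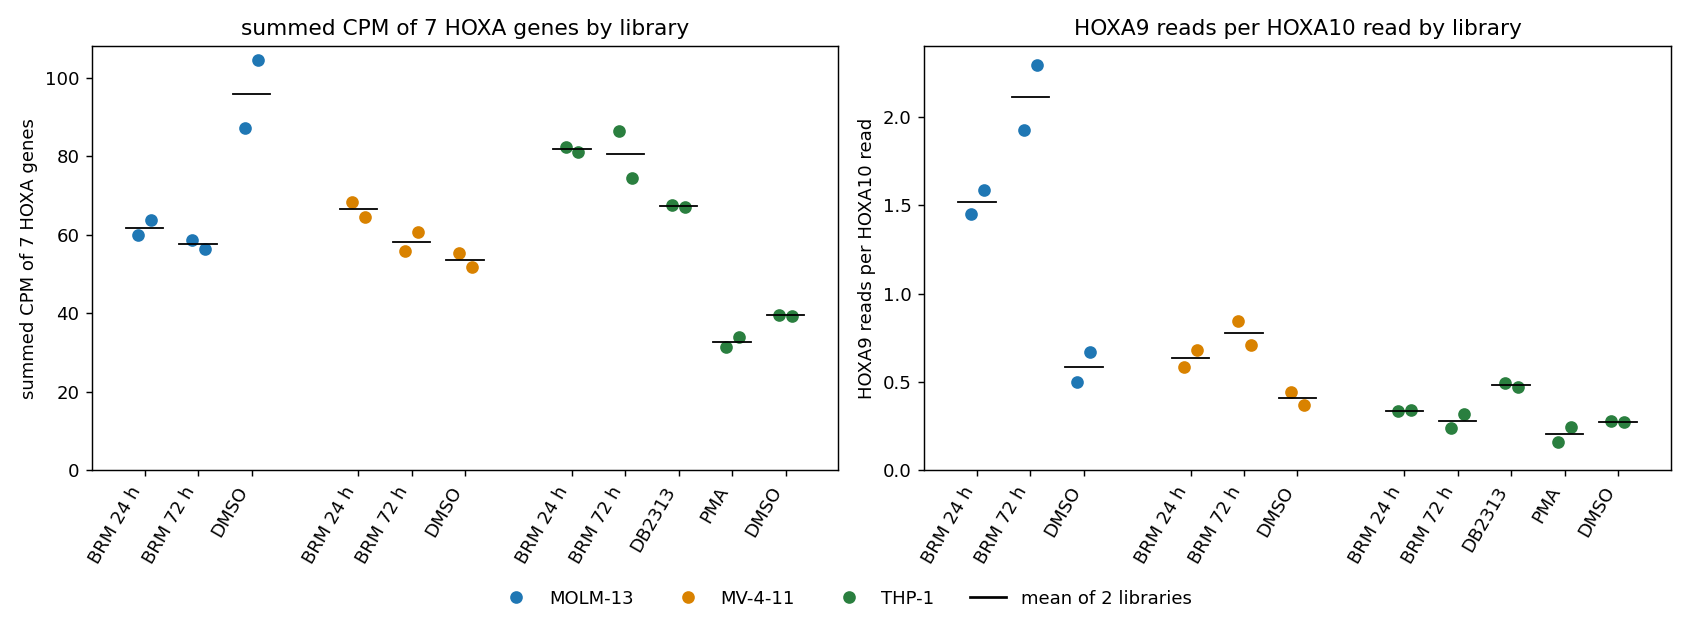
Summed CPM of the 7 HOXA genes (left) and HOXA9 reads per HOXA10 read (right) in each library, coloured by line, with bars at the mean of 2 libraries and axes from 0. The ratio reaches 1.93 and 2.30 in MOLM-13 at 72 h of BRM014 and stays below 0.5 in every THP-1 library, while the sum is above DMSO in both BRM014 groups of THP-1 and below it in those of MOLM-13.

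HOXA5, a HOX factor also known for a part in lung and blood development, fell in MOLM-13, rose in THP-1 and rose in MV-4-11 at 72 h. In MOLM-13 it had 7.63 and 8.32 CPM at 24 h and 6.62 and 5.85 CPM at 72 h, against 12.03 and 13.1 CPM with DMSO. These groups did not overlap, with changes of -0.78 ± 0.16 and -1.20 ± 0.16 (adjusted p = 0.000444 and 1.93e-06). In THP-1 it had 4.03 and 4.08 CPM at 24 h and 3.26 and 2.94 CPM at 72 h, against 1.57 and 1.49 CPM with DMSO. These groups did not overlap either, with changes of 1.36 ± 0.20 and 0.94 ± 0.21 (adjusted p = 1.2e-05 and 0.000728). In MV-4-11 it had 19.1 and 19.8 CPM at 24 h and 23.7 and 23.6 CPM at 72 h, against 16.7 and 14.6 CPM with DMSO. The treated libraries lay above DMSO at both times, and the 72 h change passed the test (0.54 ± 0.15, adjusted p = 0.00487), though not without DMSO replicate 2 (adjusted p = 0.0716).

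HOXA3 and HOXA4 are anterior genes of the cluster, in the sense of the body axis. HOXA3 had 9.43 and 11.1 CPM at 24 h and 9.59 and 8.30 CPM at 72 h in MOLM-13, against 15.1 and 19.3 CPM with DMSO. All treated libraries lay below DMSO, and HOXA3 fell by 0.87 and 1.14 on the log2 scale (adjusted p = 0.0294 and 0.00412). The 24 h call was lost without BRM014 24 h replicate 1 (adjusted p = 0.158), BRM014 24 h replicate 2 (0.0711) or DMSO replicate 2 (0.197), and with library size alone as the scaling (0.0604). In THP-1 HOXA3 had 24 and 20 reads at 24 h and 30 and 24 reads at 72 h, against 10 and 1 reads with DMSO. The DMSO libraries thus differed 10 reads to 1, and the changes of 1.74 ± 0.56 and 2.23 ± 0.54 became 0.74 (adjusted p = 0.261) and 1.23 (0.0439) without DMSO replicate 2. Without DMSO replicate 1 they became 4.23 and 4.72, and the 24 h call was also lost without BRM014 24 h replicate 1 (adjusted p = 0.0812) and in a fit of THP-1 libraries only (0.0951). In MV-4-11 HOXA3 had 4.05 and 4.08 CPM at 24 h and 4.71 and 3.53 CPM at 72 h, against 3.33 and 4.55 CPM with DMSO, and all 3 groups overlapped.

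HOXA4 had 2.51 and 1.48 CPM at 24 h and 1.82 and 1.96 CPM at 72 h in THP-1, against 0.564 and 0.841 CPM with DMSO. It rose at both times, by 1.43 ± 0.42 and 1.31 ± 0.42 (adjusted p = 0.00757 and 0.0116), and the groups did not overlap. Both calls were lost without DMSO replicate 1 (adjusted p = 0.0724 and 0.0910), and the 24 h call without BRM014 24 h replicate 1 (0.110). In MOLM-13 it had 4.16 and 3.10 CPM at 24 h and 3.21 and 3.99 CPM at 72 h, against 2.13 and 3.08 CPM with DMSO, and in MV-4-11 2.65 and 3.28 CPM and 3.08 and 2.49 CPM, against 2.83 and 1.68 CPM with DMSO. HOXA4 was called in neither of these lines.

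HOXA6 and HOXA7 were scarce, and both share many exon bases with antisense HOXA-AS3. HOXA6 had 47 and 57 reads at 24 h and 28 and 40 reads at 72 h in MV-4-11, against 18 and 28 reads with DMSO. The 24 h libraries lay above DMSO, with a change of 1.08 ± 0.42 (adjusted p = 0.0440) that did not pass without any 1 of the 4 libraries compared (adjusted p = 0.0820 to 0.220). It also did not pass with DESeq2 (adjusted p = 0.0807). In MOLM-13 HOXA6 had 36 and 38 reads at 24 h and 23 and 24 reads at 72 h, against 28 and 35 reads with DMSO, with no call at either time in the model of all libraries. It was called lower at 72 h in a fit of MOLM-13 libraries only (-0.87, adjusted p = 0.0379). HOXA7 was called in no line with BRM014 in the model of all libraries. It had 2.98 and 3.58 CPM at 24 h and 2.96 and 3.09 CPM at 72 h in MOLM-13, against 5.16 and 3.65 CPM with DMSO, and 2.32 and 2.94 CPM and 1.804 and 1.87 CPM in MV-4-11, against 2.56 and 1.96 CPM. The treated MOLM-13 libraries all lay below DMSO, and the 72 h change was called lower in a fit of MOLM-13 libraries only (-0.74, adjusted p = 0.0206). In THP-1 it had 6 and 4 reads at 24 h and 11 and 1 reads at 72 h, against 6 and 10 reads with DMSO. The 72 h THP-1 libraries differed 11 reads to 1, and the uncalled value there (-0.43 ± 0.60) was 0.37 without replicate 2 of that group and was called lower without replicate 1 (-2.80, adjusted p = 0.0170).

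MEIS1, the TALE cofactor that binds with HOXA9 and drives leukaemia with it, fell in both lines that expressed it. In MOLM-13 it had 39.2 and 48.6 CPM at 24 h and 29.2 and 30.3 CPM at 72 h, against 58.0 and 59.6 CPM with DMSO. In MV-4-11 it had 21.2 and 26.0 CPM at 24 h and 16.4 and 14.4 CPM at 72 h, against 31.0 and 35.1 CPM with DMSO. In both lines every 24 h library lay below DMSO and every 72 h library below the 24 h ones. The changes at 72 h were -1.18 ± 0.15 in MOLM-13 and -1.16 ± 0.16 in MV-4-11 (adjusted p = 3.26e-06 and 7.71e-06), and these calls held without any 1 library. At 24 h they were -0.55 ± 0.15 and -0.56 ± 0.16 (adjusted p = 0.00657 and 0.00725). The 24 h call was lost in MOLM-13 without BRM014 24 h replicate 1 (adjusted p = 0.0996), and in MV-4-11 without BRM014 24 h replicate 1 (0.0914) or DMSO replicate 2 (0.0809). In THP-1 MEIS1 had no read in either library at 24 h or at 72 h of BRM014 or with PMA, 2 and 0 reads with DB2313, and 1 and 4 reads with DMSO. No fold is given for THP-1, and the calls against DMSO there at 24 h and 72 h and with PMA were lost without DMSO replicate 2 (adjusted p = 0.205, 0.200 and 0.264) and without either treated library. With DB2313 MEIS1 was not called, and was called lower without DB2313 replicate 1, which left 0 reads against 5.

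PBX3, the PBX cofactor that stabilises HOXA9 and MEIS1 complexes, rose in THP-1 and MV-4-11 and fell in MOLM-13 at 72 h. In THP-1 it had 226 and 237 CPM at 24 h and 314 and 281 CPM at 72 h, against 170.0 and 179.5 CPM with DMSO. The 3 groups did not overlap, and the changes were 0.36 ± 0.07 and 0.68 ± 0.07 (adjusted p = 0.000199 and 4.74e-08). In MV-4-11 it had 168 and 172 CPM at 24 h and 125 and 130.5 CPM at 72 h, against 107 and 106 CPM with DMSO. Both treated groups lay above DMSO, by 0.60 ± 0.07 (adjusted p = 5.1e-07) and 0.21 ± 0.07 (0.0175). The 72 h call in MV-4-11 was lost without BRM014 72 h replicate 2 (adjusted p = 0.123), DMSO replicate 1 (0.0725) or DMSO replicate 2 (0.0826), and with no filter on low counts (0.150). PBX3 in MOLM-13 had 153 and 155 CPM at 24 h and 126 and 123 CPM at 72 h, against 156 and 147 CPM with DMSO. The 24 h libraries lay within the DMSO range and the 72 h libraries below it, with a change of -0.47 ± 0.07 (adjusted p = 6.41e-06).

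MEF2C rose at 24 h and fell at 72 h in MV-4-11, fell at both times in MOLM-13 and rose at 72 h in THP-1. In MV-4-11 it had 329 and 321 CPM at 24 h and 144 and 137 CPM at 72 h, against 245 and 252 CPM with DMSO. The 24 h libraries lay above DMSO (0.32 ± 0.08, adjusted p = 0.00412) and the 72 h libraries below it (-0.88 ± 0.09, adjusted p = 2.35e-08). MEF2C in MOLM-13 had 285 and 259 CPM at 24 h and 179.9 and 177 CPM at 72 h, against 314 and 269 CPM with DMSO. The groups overlapped at 24 h and did not at 72 h, when MEF2C fell by 0.90 ± 0.09 on the log2 scale (adjusted p = 1.25e-08). The small 24 h fall in MOLM-13 (-0.22 ± 0.08, adjusted p = 0.0368) was not called without BRM014 24 h replicate 2 (0.273), without DMSO replicate 1 (0.334) or with library size alone (0.419). In THP-1 it had 122 and 123 CPM at 24 h and 183 and 167 CPM at 72 h, against 123 and 119 CPM with DMSO. It overlapped with DMSO at 24 h and rose at 72 h (0.45 ± 0.09, adjusted p = 0.000148).

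The BRM014 effect itself differed between the 3 lines for 6 of the 10 genes at 24 h, where 43.5% of all genes differed, and for the same count at 72 h, where 52.9% did. At both times they were HOXA3, HOXA5, HOXA9, HOXA10, PBX3 and MEF2C. HOXA10 had the smallest adjusted p at both times (3.35e-08 at 24 h and 2.3e-09 at 72 h, F test of both differences between lines). For HOXA9 the difference at 72 h (adjusted p = 0.0143) did not pass without MOLM-13 DMSO replicate 2 (0.0596), THP-1 BRM014 72 h replicate 2 (0.0531) or THP-1 DMSO replicate 2 (0.0515). For HOXA4 and HOXA7 the difference between lines did not pass at either time (adjusted p = 0.187 and 0.193 for HOXA4). For MEIS1 and HOXA6 it could not be judged, since THP-1 held too few reads.

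Averaged over the 3 lines, 5 genes were higher and 2 lower at 24 h (28.9% and 27.1% of all genes), and 3 were higher and 3 lower at 72 h (34.9% and 30.4%). HOXA9 was called higher at both times (0.56 ± 0.11 and 0.39 ± 0.11), as was PBX3 (0.29 ± 0.04 and 0.14 ± 0.04, the 72 h call lost with no filter on low counts, adjusted p = 0.0940) and HOXA4 (0.70 ± 0.22 and 0.61 ± 0.22). The HOXA9 means took in THP-1 rises and uncalled MOLM-13 values (-0.16 ± 0.18 at 24 h and -0.05 ± 0.18 at 72 h). In MV-4-11 HOXA9 was called at 24 h only. HOXA4 was called in THP-1 and in neither other line. HOXA10 was called lower at both times (-0.20 ± 0.08 and -0.52 ± 0.08), a mean over a rise in THP-1 and a fall in MOLM-13. Its 24 h call held without MOLM-13 DMSO replicate 1 or MV-4-11 BRM014 24 h replicate 1 and was lost without each of the other 10 libraries (adjusted p = 0.0574 to 0.156). The 24 h call of HOXA10 was also lost with library size alone as the scaling (-0.12, adjusted p = 0.222). MEF2C was lower at 72 h (-0.44 ± 0.05), a mean over falls in MOLM-13 and MV-4-11 and a rise in THP-1. The 72 h mean of PBX3 took in a fall in MOLM-13 and rises in MV-4-11 and THP-1. The 24 h mean of HOXA5 took in a fall in MOLM-13 and a rise in THP-1. Its call was lost with no filter on low counts (adjusted p = 0.165) and with DESeq2 (0.063). HOXA5 was higher at 24 h (0.28 ± 0.10, adjusted p = 0.0247), and that call was lost without MOLM-13 BRM014 24 h replicate 2 (adjusted p = 0.0622), MOLM-13 DMSO replicate 1 (0.0649), MV-4-11 BRM014 24 h replicate 2 (0.05004), MV-4-11 DMSO replicate 2 (0.0727) or THP-1 DMSO replicate 2 (0.0730). The 72 h call of HOXA4 was lost without MOLM-13 DMSO replicate 1 (adjusted p = 0.0598), MV-4-11 DMSO replicate 2 (0.0658) or THP-1 DMSO replicate 1 (0.0632). HOXA3, uncalled in the mean, was called higher without THP-1 DMSO replicate 1 at 24 h (1.11) and at 72 h (1.19), and HOXA7 was called lower at 72 h without THP-1 BRM014 72 h replicate 1 (-1.29). HOXA6 and MEIS1 enter these counts at 24 h, and MEIS1 at 72 h, on values that rest on a handful of THP-1 reads and are not given.

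Between 72 h and 24 h of BRM014, MEF2C and PBX3 were called in every line. Both had more reads and smaller standard errors than the HOXA genes, so smaller changes could pass. In MOLM-13, HOXA10 was not called at -0.35 ± 0.16, where PBX3 was at -0.37 ± 0.07. In MOLM-13, 0 genes were higher and 4 lower at 72 h (20.8% and 22.7% of all genes), namely MEF2C (-0.67 ± 0.09), MEIS1 (-0.63 ± 0.15), HOXA5 (-0.42 ± 0.17) and PBX3 (-0.37 ± 0.07). In MV-4-11, 0 were higher and 4 lower (18.6% and 16.9%), namely MEF2C (-1.20 ± 0.09), HOXA10 (-0.63 ± 0.15), MEIS1 (-0.61 ± 0.16) and PBX3 (-0.40 ± 0.07). In THP-1, 2 were higher and 0 lower (16.2% and 16.5%), namely MEF2C (0.47 ± 0.09) and PBX3 (0.32 ± 0.07). MEF2C and PBX3 were thus lower at 72 h than at 24 h in MOLM-13 and MV-4-11 and higher in THP-1, and these 6 calls held without any 1 library. HOXA5 in MOLM-13 lost its call without any 1 of the 4 libraries (adjusted p = 0.0640 to 0.230). MEIS1 lost it in MOLM-13 without BRM014 24 h replicate 2 (adjusted p = 0.0604), and in MV-4-11 without BRM014 24 h replicate 2 (0.0946) or BRM014 72 h replicate 2 (0.0814). HOXA10 lost it in MV-4-11 without BRM014 24 h replicate 1 (adjusted p = 0.0512) or BRM014 72 h replicate 1 (0.0627). Fits of a single line's libraries called HOXA6 (adjusted p = 0.0255) and HOXA10 (0.0406) lower in MOLM-13 as well, and HOXA5 higher (0.0493) and HOXA9 lower (0.0498) in MV-4-11, and lost HOXA5 in MOLM-13 (0.0742).

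With DB2313, 5 HOXA genes rose in THP-1, and MEIS1, PBX3 and MEF2C were not called. HOXA7 had 61 and 57 reads (3.23 and 2.69 CPM) with DB2313, against 6 and 10 reads (0.376 and 0.495 CPM) with DMSO. HOXA3 had 2.80 and 2.03 CPM against 0.626 and 0.0495 CPM, HOXA4 had 2.54 and 4.34 CPM against 0.564 and 0.841 CPM, HOXA5 had 6.24 and 5.43 CPM against 1.57 and 1.49 CPM, and HOXA9 had 17.4 and 16.8 CPM against 7.96 and 7.82 CPM. For all 5 genes every DB2313 library lay above every DMSO library, as also for the uncalled HOXA10 and PBX3. The share of all genes separated in this way was not counted. The rises were 2.86 ± 0.51 for HOXA3, 2.65 ± 0.46 for HOXA7, 2.19 ± 0.40 for HOXA4, 1.86 ± 0.20 for HOXA5 and 1.04 ± 0.19 for HOXA9, with adjusted p from 7.15e-08 to 8.82e-05. In all, 5 genes rose and 0 fell, where 35.9% and 29.5% of all genes did and the median of all genes stood at 0.14. HOXA10 had 35.4 and 35.6 CPM against 28.4 and 28.7 CPM, PBX3 179.9 and 198 CPM against 170.0 and 179.5 CPM, and MEF2C 107 and 120.1 CPM against 123 and 119 CPM, and none of these was called. The HOXA3 value was 1.85 without DMSO replicate 2 and 5.34 without DMSO replicate 1, called in both cases. HOXA10 was called higher, of the alternatives run, with library size alone as the scaling (0.31, adjusted p = 0.0454).

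BRM014 at 72 h and DB2313 at 72 h differed in 6 of the 10 genes, 3 higher and 3 lower with BRM014 (30.4% and 30.9% of all genes). Higher with BRM014 were HOXA10 (0.70 ± 0.13), PBX3 (0.64 ± 0.07) and MEF2C (0.61 ± 0.09). HOXA7 was lower with BRM014, at 11 and 1 reads against 61 and 57 reads with DB2313 (-3.08 ± 0.48, adjusted p = 1.54e-05). That value was -2.27 without BRM014 72 h replicate 2 and -5.45 without replicate 1, called in both. HOXA5 (-0.92 ± 0.18) and HOXA4 (-0.87 ± 0.36) were also lower. The HOXA4 call (adjusted p = 0.0425) was lost without BRM014 72 h replicate 1 (0.148), BRM014 72 h replicate 2 (0.105) or DB2313 replicate 2 (0.394), and with DESeq2 (0.0543).

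PMA drives THP-1 towards macrophages, and few of the 10 genes were called with it. MEF2C had 168 and 136 CPM with PMA, against 123 and 119 CPM with DMSO, and rose (0.42 ± 0.09, adjusted p = 0.000715) with no overlap of the groups. MEIS1 was called lower on 0 reads with PMA and 5 with DMSO, which made 1 higher and 1 lower (18.9% and 17.1% of all genes). HOXA9 had 3.999 and 6.32 CPM with PMA, against 7.96 and 7.82 CPM with DMSO, below DMSO in both libraries but not called (-0.53 ± 0.21, adjusted p = 0.0563). It was called without PMA replicate 2 (-0.92, adjusted p = 0.00336), with library size alone (0.0210) and with no filter on low counts (0.0237). HOXA10 had 24.6 and 25.7 CPM, against 28.4 and 28.7 CPM with DMSO, and was not called. HOXA3 had 8 and 3 reads with PMA against 10 and 1 with DMSO, and HOXA7 had 3 and 2 reads against 6 and 10. HOXA4 had 0.683 and 0.527 CPM against 0.564 and 0.841 CPM, HOXA5 had 1.56 and 1.11 CPM against 1.57 and 1.49 CPM, and PBX3 had 189 and 167 CPM against 170.0 and 179.5 CPM. The PMA and DMSO libraries overlapped for HOXA3, HOXA4, HOXA5 and PBX3 and not for HOXA7, and none was called. HOXA6 had no read in either group.

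Of the 7 HOXA genes with HOXA11 and HOXA13, those called higher in THP-1 with DB2313 were HOXA3, HOXA4, HOXA5, HOXA7 and HOXA9, and those called higher at 72 h of BRM014 were HOXA3, HOXA4, HOXA5, HOXA9, HOXA10, HOXA11 and HOXA13. Of 11 other genes and RNAs of the cluster, 9 were tested. With DB2313, 3 rose and 0 fell, namely HOTAIRM1 (1.86 ± 0.26), HOTTIP (1.44 ± 0.26) and HOXA11-AS (1.28 ± 0.12), with a median of 0.36 over the 9. HOXA11 had 35.8 ± 0.537 CPM with DB2313, against 32.2 ± 0.686 CPM with DMSO, without a call. With BRM014 in THP-1, 3 rose at 24 h, namely HOXA11-AS (1.60 ± 0.12), HOXA11 (1.32 ± 0.09) and HOXA10-AS (1.09 ± 0.29), 6 rose at 72 h, and 0 fell at either time. At 72 h they included HOXA11-AS (1.82 ± 0.12), HOXA10-AS (1.29 ± 0.29), HOXA11 (1.22 ± 0.09), HOXA13 (0.92 ± 0.17) and HOTTIP (0.62 ± 0.26). The sixth was HOXA-AS3, on 7 reads with BRM014, all in 1 of the 2 libraries, and 0 with DMSO. HOXA11 was higher with BRM014 at 72 h than with DB2313 (1.14 ± 0.09). With PMA, 1 rose, HOTAIRM1 (1.11 ± 0.26), and 3 fell, HOTTIP (-1.04 ± 0.28), HOXA13 (-0.68 ± 0.18) and HOXA11-AS (-0.43 ± 0.13). Of all genes in THP-1, 35.9% rose and 29.5% fell with DB2313, and 18.9% and 17.1% with PMA. With BRM014, 25.9% rose and 24.1% fell at 24 h, and 30.9% and 28.0% at 72 h. Nothing particular to these 9 genes is read from their counts.

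At 24 h in MOLM-13, 1 of the 9 other cluster genes rose (22.7% of all genes) and 1 fell (23.5%). By 72 h in that line, 1 rose (30.3%) and 0 fell (29.4%). The fall was of HOXA2, on 3 reads at 24 h and 18 with DMSO. HOTAIRM1, a long noncoding RNA of the anterior end, rose at both times (1.16 ± 0.27 and 1.26 ± 0.26). In MV-4-11, 2 rose and 1 fell at 24 h (23.6% and 22.4% of all genes), and 3 rose and 0 fell at 72 h (28.4% and 26.1%). HOTTIP, an RNA beyond HOXA13, was called lower at 24 h, on 1 read against 7 with DMSO. The largest rises there were of HOXA11 (1.29 ± 0.10 and 1.60 ± 0.10) and HOXA11-AS (0.81 ± 0.14 and 1.31 ± 0.14). HOXA11 had 39.0 ± 2.81 CPM at 72 h in MV-4-11, against 12.3 ± 0.495 CPM with DMSO. The BRM014 effect on HOXA11 differed between lines at both times (adjusted p = 4.39e-07 and 2.83e-08).

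**Figure D4:**
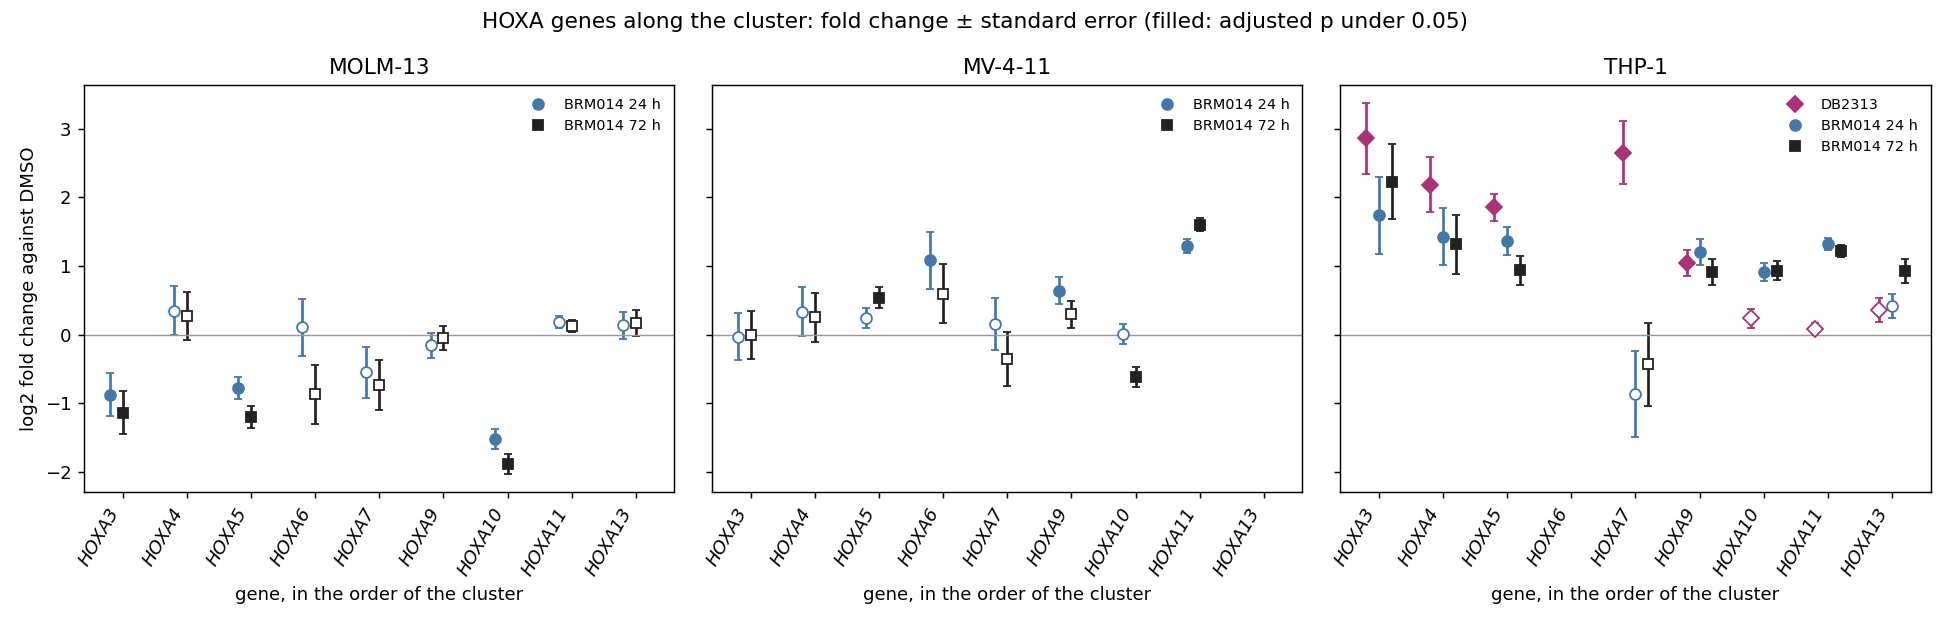
Log2 fold change against DMSO ± standard error for HOXA genes in their order along the cluster, from HOXA3 to HOXA13, in each line. Filled symbols passed an adjusted p under 0.05, and genes with too few reads are left out. In THP-1 the DB2313 symbols stand at 0.24 for HOXA10 and 0.08 for HOXA11, and the BRM014 72 h symbols at 0.93 and 1.22 for the same genes.

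Several relatives of the cofactors were called as well. Of 8 other TALE genes, all tested, 5 rose and 1 fell in MOLM-13 at 24 h, 4 rose and 0 fell in MV-4-11 and 2 rose and 3 fell in THP-1, with medians of 1.01, 0.53 and 0.04. At 72 h, 3 rose and 1 fell in MOLM-13, 5 rose and 0 fell in MV-4-11, and 3 rose and 2 fell in THP-1. MEIS3, a relative of MEIS1, rose in every line at both times from very low levels. It had 180 reads over the 2 THP-1 libraries at 72 h, against 6 with DMSO, 17 against 0 in MOLM-13 and 42 against 0 in MV-4-11. PKNOX2 was called higher in THP-1 at 72 h on 5 reads against 0. PBX4 rose in THP-1 at 72 h (3.42 ± 0.38), to 13.4 ± 0.778 CPM against 1.18 ± 0.196 CPM with DMSO. MEIS2 fell in THP-1 at 72 h, to 7.05 ± 1.13 CPM against 13.3 ± 0.884 CPM. With DB2313, 4 of the 8 rose and 1 fell, and with PMA 0 rose and 1 fell. Of all genes, 22.7% rose and 23.5% fell in MOLM-13, while MV-4-11 had 23.6% and 22.4%, and THP-1 25.9% and 24.1% at 24 h, and at 72 h 30.3% rose and 29.4% fell in MOLM-13, while MV-4-11 had 28.4% and 26.1%, and THP-1 30.9% and 28.0%. The THP-1 counts with BRM014 were close to those shares. The shares of all genes were 35.9% and 29.5% with DB2313 and 18.9% and 17.1% with PMA.

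Among the 3 relatives of MEF2C, MEF2D fell and MEF2A rose in every line at both times. At 72 h MEF2D had 105 ± 3.39 CPM in MOLM-13, against 479 ± 19.4 CPM with DMSO, 137 ± 0.0707 against 408 ± 0.141 CPM in MV-4-11, and 205 ± 2.76 against 841 ± 18.9 CPM in THP-1. Those changes were -2.38 ± 0.07, -1.63 ± 0.06 and -2.12 ± 0.06. MEF2A changed by 0.85 ± 0.11, 0.75 ± 0.12 and 0.83 ± 0.11 in the same lines at 72 h. With DB2313, MEF2D fell (-1.26 ± 0.06) and MEF2A rose (1.11 ± 0.11), and with PMA likewise (-1.19 ± 0.06 and 1.26 ± 0.11), where MEF2C itself was called higher with PMA and uncalled with DB2313. MEF2B was called higher in MOLM-13 at both times and in THP-1 at 72 h, on 15 reads in MOLM-13 at 72 h against 0 with DMSO, and 21 against 3 in THP-1.

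Genes of the other HOX clusters were mostly silent. Of 28 HOXB, HOXC and HOXD genes 5 were tested, and HOXB3 and HOXB4 had reads in THP-1 and none in MOLM-13 or MV-4-11. HOXB3 rose in THP-1 at 72 h of BRM014 (1.39 ± 0.40), to 6.92 ± 0.795 CPM against 2.45 ± 1.51 CPM with DMSO. With DB2313, HOXB13 had 49 reads and HOXC6 45 reads over 2 libraries, against 1 and 1 with DMSO. Both were called higher, while HOXB4 fell (-0.87 ± 0.33), where 35.9% of all genes rose and 29.5% fell. The filter on low counts can keep a gene through 1 group alone, so HOXB13 and HOXC6 may have been tested because of their DB2313 reads. Their calls are therefore not independent of that selection. At 24 h of BRM014 and with PMA none of the 5 was called. Of all genes in THP-1 25.9% rose and 24.1% fell at 24 h, 30.9% and 28.0% at 72 h, and 18.9% and 17.1% with PMA.

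Known targets of HOXA9 and MEIS1 in myeloid cells moved both ways. Of 15 such genes 14 were tested, and at 72 h of BRM014 2 rose and 8 fell in MOLM-13, 6 rose and 3 fell in MV-4-11, and 5 rose and 7 fell in THP-1, with medians of -0.80, 0.06 and -0.03. At 24 h, 5 rose and 6 fell in MOLM-13, 6 rose and 3 fell in MV-4-11, and 5 rose and 7 fell in THP-1. MYC, a transcription factor gene of cell growth, fell at 72 h in all 3 (-6.41 ± 0.10 in MOLM-13, -4.77 ± 0.09 in MV-4-11 and -3.93 ± 0.09 in THP-1), and so did BCL2, a survival gene (-3.63 ± 0.08, -3.56 ± 0.08 and -2.14 ± 0.07). TRIB2, which acts on C/EBPα protein, rose in all 3 (4.41 ± 0.27, 2.41 ± 0.09 and 3.82 ± 0.12). ID2, an inhibitor of helix-loop-helix factors, rose in MV-4-11 (3.35 ± 0.11), and ERG, an ETS factor gene, fell in THP-1, with 2 reads against 53 with DMSO. With DB2313, 7 rose and 6 fell, with TRIB2 (4.21 ± 0.12) and MYB (-3.45 ± 0.08) at the 2 ends. With PMA 5 rose and 8 fell. Of all genes 35.9% rose and 29.5% fell with DB2313, and 18.9% and 17.1% with PMA. The shares of all genes that rose and fell at 72 h were 30.3% and 29.4% for MOLM-13, 28.4% and 26.1% for MV-4-11 and 30.9% and 28.0% for THP-1, and nothing particular to these 14 genes is read from their counts.

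Of 20 regulators of the HOXA cluster, such as KMT2A complex members and Polycomb genes, 17 were tested. At 72 h of BRM014, 4 rose and 7 fell in MOLM-13, 4 rose and 5 fell in MV-4-11 and 6 rose and 8 fell in THP-1. NPM1, whose mutation is tied to high HOXA levels in leukaemia, fell in all 3 (-2.10 ± 0.08, -1.61 ± 0.07 and -1.12 ± 0.07), and AFF4, a subunit of the super elongation complex, rose in all 3 (1.34 ± 0.12, 1.25 ± 0.11 and 0.86 ± 0.11). MLLT3, the fusion partner in MOLM-13 and THP-1, fell in MV-4-11 (-1.15 ± 0.13). EZH2, the Polycomb methyltransferase gene, fell in MOLM-13 (-1.04 ± 0.07), MV-4-11 (-0.65 ± 0.07) and THP-1 (-0.71 ± 0.06). At 24 h, 6 rose and 4 fell in MOLM-13, 7 rose and 4 fell in MV-4-11, and 5 rose and 6 fell in THP-1. The shares of all genes at 24 h were 22.7% and 23.5% for MOLM-13, 23.6% and 22.4% for MV-4-11 and 25.9% and 24.1% for THP-1. With DB2313, 2 rose and 12 fell, and with PMA 0 rose and 12 fell. Of all genes the shares at 72 h were 30.3% and 29.4% for MOLM-13, 28.4% and 26.1% for MV-4-11 and 30.9% and 28.0% for THP-1, and the MV-4-11 counts were near them. They were 35.9% and 29.5% with DB2313 and 18.9% and 17.1% with PMA.

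Ranked over the 11 groups by mean CPM, HOXA10 ran from 57.9 ± 8.58 CPM in THP-1 at 72 h of BRM014 to 11.2 ± 1.27 CPM in MOLM-13 at 72 h (SD, n = 2). Within that order the THP-1 72 h and 24 h groups overlapped, as did MOLM-13 DMSO with THP-1 DB2313, MV-4-11 24 h with MV-4-11 DMSO, and the lowest 3 groups with their neighbours. HOXA9 ran from 23.4 ± 0.247 CPM in MOLM-13 at 72 h to 5.16 ± 1.64 CPM in THP-1 with PMA. MOLM-13 with DMSO, second from the top, overlapped with the 24 h and the 72 h group of that line, and MV-4-11 and THP-1 with DMSO overlapped with each other. MEIS1 ran from 58.8 ± 1.10 CPM in MOLM-13 DMSO through 5 further groups of MOLM-13 and MV-4-11 with no overlap of neighbours, and then to the 5 THP-1 groups at 0.130 CPM or less. PBX3 was highest in THP-1 at 72 h (297 ± 23.2 CPM) and lowest in MV-4-11 DMSO (106 ± 0.778 CPM), and MEF2C was highest in MV-4-11 at 24 h (325 ± 5.59 CPM) and lowest in THP-1 with DB2313 (114 ± 9.19 CPM). HOXA5 was highest in MV-4-11 at 72 h (23.6 ± 0.0778 CPM) and lowest in THP-1 with PMA (1.33 ± 0.321 CPM), where PMA and DMSO libraries overlapped. HOXA3 was highest in MOLM-13 DMSO and HOXA4 in MOLM-13 at 24 h, and 9 neighbouring HOXA4 groups ran on with overlap from there to THP-1 at 72 h.

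As a description over the 11 group means of log2 CPM, which share lines and DMSO groups, HOXA10 and PBX3 had a Pearson correlation of 0.822, HOXA9 and PBX3 of 0.095 and HOXA9 and HOXA10 of 0.032. Over the differences of the 8 treated groups from DMSO of their line, which share DMSO libraries, the same pairs had 0.821, 0.545 and 0.697. HOXA9 and MEIS1 had 0.346 over the group means and 0.131 over the differences, with MEIS1 near 0 in THP-1. Some other pairs stood higher than HOXA10 and PBX3, such as HOXA3 and HOXA4 at 0.891 and 0.89. The genes outside the 10 whose pattern was most like that of HOXA9 were LINC01480 (r = 0.956), REXO1 (0.928), TM7SF2 (0.918), ZFPL1 (0.906) and RNF5P1 (0.899). For PBX3 they included TOP1P1 (0.949), DLG3 (0.925), TMEM39A (0.916) and MAP3K1 (0.913), and for MEF2C CCDC77 (0.938), MRPL57 (0.893), INTS14 (0.890), NHEJ1 (0.888) and RPS24 (0.884). For MEIS1 they were EMD (0.989), ALKBH5 (0.988), IDH3B (0.988), PPP3CB (0.988) and FUNDC1 (0.988), values that largely reflect the gap between THP-1, where MEIS1 was near 0, and the other lines.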

How the data were processed

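The authors deposited 1 table of raw read counts per gene symbol for each of 22 RNA sequencing libraries. Per the submitters' processing notes, the build hg38 and the tools HISAT2 2.1.0, HTSeq and DESeq2 were used, with no role given, and the annotation and strand setting of the counting are not given in the sources used here. The 5 summary rows of each table entered neither library sizes nor tests, and reads in no gene made up 12.02% to 19.2% and ambiguous reads 3.04% to 3.82%. Counts were tested with edgeR 4.0.16 (R 4.3.3; TMM scaling, genes kept by filterByExpr with a minimum count of 10, quasi-likelihood test, Benjamini-Hochberg adjustment over 16794 genes) in 1 model of all 22 libraries with a coefficient for each of the 11 groups. The fit was also run on counts simulated from the THP-1 DMSO means with the same fixed spread for all genes. That setting lacks the line differences and gene-wise spread of these data, and no result here rests on it. DESeq2 1.42.0, other scalings, no filter, a replicate block, fewer libraries and leaving out each library were alternatives. Libraries of a group are replicates by their labels. The members and gene lists were chosen with earlier results of these data known, and the motifs CACGTG and CCAAT were added after the promoters had been read. All 10 genes were named whatever their values; of each list, called genes with the largest fold were named, at most 6 a comparison, and uncalled genes named beside them were chosen after their values were seen. Some genes of these lists are not reported here and entered no count. Pattern likeness used Pearson's r over 11 group means of TMM-scaled log2 CPM with a prior count of 2. Positions come from GENCODE v29 and promoters from RefSeq.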

Additional observations from a re-analysis of the deposited data

Results flagged for a closer look

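For 6 genes the BRM014 effect differed between MOLM-13, MV-4-11 and THP-1 by a test of the difference itself, edgeR's F test with adjustment over all genes. By the same test 43.5% of all genes differed at 24 h and 52.9% at 72 h. At 24 h the adjusted p was 3.35e-08 for HOXA10, 6.19e-06 for HOXA5, 3.18e-05 for PBX3, 0.0011 for HOXA9, 0.00344 for MEF2C and 0.00811 for HOXA3. At 72 h it was 2.3e-09 for HOXA10, 1.04e-08 for MEF2C, 3.15e-08 for PBX3, 7.9e-07 for HOXA5, 0.000527 for HOXA3 and 0.0143 for HOXA9.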

How the results depend on the processing

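Leaving out 1 library at a time gave 3 to 4 called genes at 24 h in MOLM-13 (5 with all libraries), 2 to 4 in MV-4-11 (5) and 4 to 6 in THP-1 (7), and 3 to 7 in the mean of lines at 24 h (7). At 72 h it gave 3 to 5 in MV-4-11 (5). Between 72 h and 24 h it gave 2 to 3 in MOLM-13 (4), and with PMA 1 to 2 (2). Library size alone as the scaling left 3 called genes at 24 h in MOLM-13, and a fit of THP-1 libraries only left 1 with PMA. The cause of these shifts was not tested. Among single values, HOXA7 at 72 h in THP-1 ran from -2.80 to 0.37 and HOXA3 in the mean of lines at 24 h from -0.0567 to 1.11 as 1 library was left out. These changed sign without THP-1 BRM014 72 h replicate 2 and without THP-1 DMSO replicate 2. The replicate block moved the count of calls only between BRM014 72 h and DB2313, to 5, where HOXA4 had an adjusted p of 0.050. Replicate numbers showed no sign of pairing the libraries: over 55 pairs of groups the correlation of deviations ran from -0.117 to 0.085. The deviations also hold counting error, so low correlations cannot exclude a pairing. A further 50 folds were called under no setting, and 23 of them had the other sign under some alternative. Depth limits MEIS1 and HOXA6 in THP-1, HOXA7 there outside DB2313, and HOXA3 there with DMSO or PMA, which rest on few reads.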
